A study of Mus musculus with 12 samples.

Results

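The genes described here were 32 mouse genes that are commonly used to recognise haematopoietic stem and progenitor cells, out of 21853 protein-coding genes in the deposited expression table. They were given as a list of symbols, chosen with earlier results of these data known, and matched to the table through GENCODE vM21, where all 32 were found. Their counts beside the shares over all genes are therefore descriptions. By role they comprised 16 transcription factors or cofactors, 6 receptors with a known ligand, 6 other surface proteins, and 4 secreted or signalling proteins, with which the membrane protein Myct1 was placed. RNA had been sequenced from whole bone marrow of mice named B6 in the labels, taken at day 14, in 4 groups of 3 libraries. Control mice were not irradiated. TBI mice received 5 Gy of total body irradiation with gamma rays at 0.66 Gy/min followed by 100 µL olive oil, which was the vehicle, given by gavage. TBI+DEIX mice received the same irradiation and then DEIX, named in the series title as the bacterial carotenoid deinoxanthin, at 25 mg/kg by mouth once a day for 14 days. DEIX mice received DEIX without irradiation. No gavage or vehicle is given for the control mice, so dosing itself cannot be told apart from either treatment in comparisons with control. The labels do not say whether each library came from a separate animal, so the p-values measure the spread between these libraries, which may be technical. Age and sex of the mice are not given in the labels.

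Haematopoietic stem cells are rare marrow cells that renew themselves and feed all blood lineages through a larger pool of committed progenitors. Their identity rests on a circuit of transcription factors such as Gata2, Runx1, Erg, Meis1 and the Hoxa genes, and their survival on cytokine receptors such as Kit and Flt3. Stem and progenitor cells are sensitive to ionising radiation, and their partial recovery in the weeks after a sublethal dose is a standard readout of marrow injury. Whole marrow consists mostly of maturing cells, so most of these genes are read there at low levels, and several are shared with other marrow cells. Kit and Gata2 are also expressed by mast cells and basophils, Sox4 and Flt3 by early lymphoid cells, and Erg, Tek, Eng, Egfl7 and Esam by endothelium or megakaryocytes. In such bulk RNA, fewer cells of a type and less RNA per cell cannot be told apart.

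Levels are given as FPKM, a unit that corrects fragment numbers for how long a transcript is and how deeply its library was sequenced. Summed FPKM ranged from 493683 to 848843 per library and 10359 to 10832 genes reached an FPKM of 1. Total reads are unknown, but the steps between low values put the FPKM worth of 1 read between 0.878 and 2.35 times that of control 1. The 3 TBI+DEIX libraries, at 2.35, 1.51 and 1.89, were among the shallowest, and the first of these values rested on only 10 genes. TBI+DEIX 1 also stood apart from the other libraries, at 53.3 on the first principal component, where the other 11 lay between -33.2 and 21.5.

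Mean levels of the 32 genes in control marrow spanned from 0.0561 FPKM for Fgd5 to 108 FPKM for the adaptor Lmo2. The next highest were Myb at 78.9, the adhesion receptor Adgrg1 at 34.0, Prom1 at 29.5 and Cd93 at 26.7 FPKM. Tests were run on log2(FPKM + 1) with limma for the 10994 genes that reached 1 FPKM in 3 or more libraries. Calls required an adjusted p (Benjamini-Hochberg, over all of those genes) under 0.05. This covered 23 of the 32 genes. The other 9, Hoxa5, Hoxa10, Mecom, Mycn, Tek, Procr, Slamf1, Esam and Fgd5, were too low and are described apart.

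**Figure D1:**
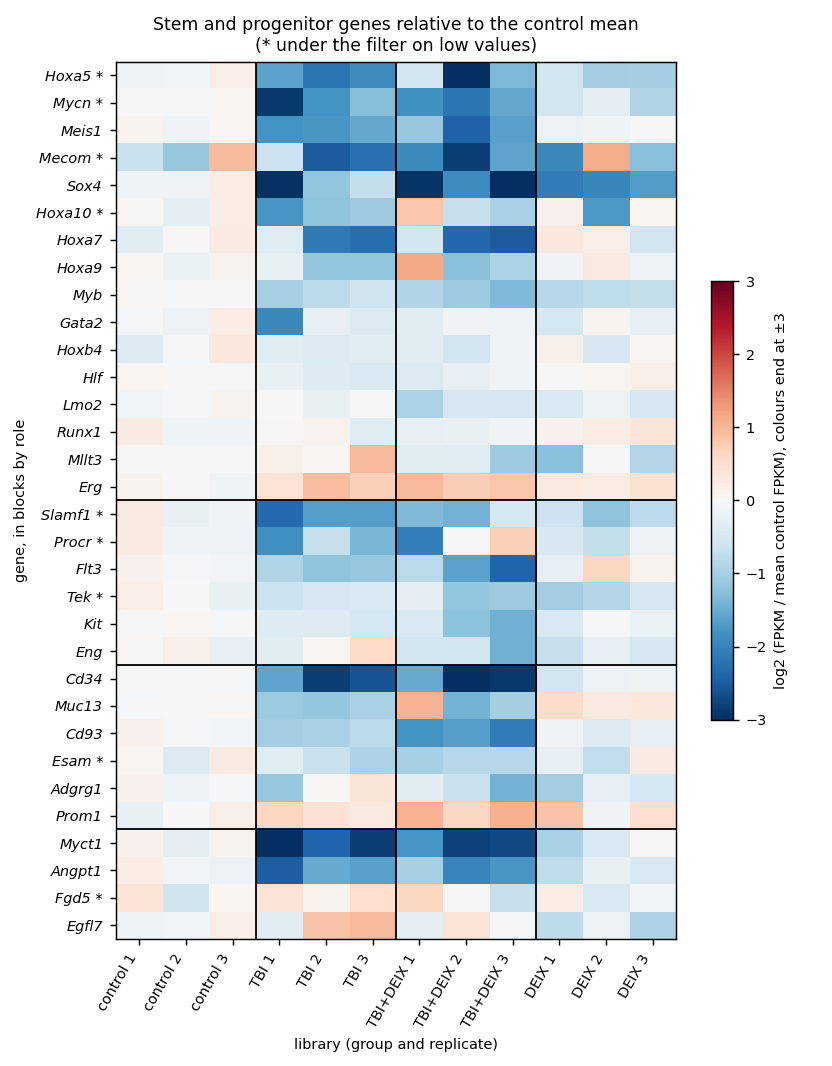
Level of each of the 32 genes in each library, as log2 of its FPKM over the gene's mean in control (colour scale, ending at 3 in either direction), with genes in rows in blocks by role and the 12 libraries in columns by group. An asterisk marks the 9 genes under the filter. Cd34, Angpt1, Myct1 and Meis1 are below control in all 6 irradiated libraries, while Erg is above control in all of them.

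The comparison of TBI with control asks which of these genes differed 14 days after irradiation with vehicle. Cd34, Angpt1, Cd93, Meis1, Myct1 and Myb fell and Erg rose, so 7 of the 23 tested genes were called, 6 lower and 1 higher. Over all tested genes 3.1% were called lower and 0.891% higher. The median log2 change of the 23 genes was -0.46, beside 0.05 for all tested genes, and 18 of the 23 were lower. Over all 32 genes, 20 had every TBI library below every control library and 3 had every TBI library above, where 15.2% and 16.6% of all genes with a value above 0 did so. Meis1 and Myct1 passed the expression filter only through unirradiated libraries, so a difference in them was built into the selection. Hoxa7 and Hoxa9, at 1 FPKM or more in 2 of 6 irradiated libraries, also needed unirradiated libraries to pass.

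Among the transcription factors, Meis1 and Myb were called lower in TBI than in control. Myb was as low in unirradiated DEIX mice, as described below. Meis1, a homeobox partner of the Hox proteins, read 1.86, 1.61 and 1.83 FPKM in control and 0.512, 0.523 and 0.609 in TBI. The 2 groups were far apart, with TBI at 31.0% of the control mean (log2 change -0.84, SE 0.12, limma adjusted p 0.00335). Myb, the factor that drives proliferation of progenitors of every lineage, went from 78.9 ± 2.02 in control to 46.0 ± 6.55 FPKM in TBI (SD, n = 3). Its log2 change was -0.77 (SE 0.12, limma adjusted p 0.00643), and the call was lost when each library was rescaled to the same summed FPKM, called the TPM scale below (adjusted p 0.143).

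Erg, an ETS factor of stem cells, megakaryocytes and endothelium, was the called gene that went the other way. It read 20.8, 19.6 and 17.6 FPKM in control and 25.9, 36.9 and 31.8 in TBI, without overlap. The log2 change was 0.67 (SE 0.13, limma adjusted p 0.0166). This call was lost on the TPM scale and without control replicate 2 or 3 or TBI replicate 2 or 3, with adjusted p up to 0.169.

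Sox4 and Gata2 were lower in all TBI libraries but spread widely there. Sox4, a factor required for early B cells, read 17.6, 17.0 and 21.8 FPKM in control and 2.41, 8.31 and 11.5 in TBI (log2 change -1.42, SE 0.42, limma adjusted p 0.0919). The lowest of these, TBI 1, was also the library with the lowest summed level of the 11 lymphoid progenitor and pro-B cell genes, 32.8 FPKM beside 372 and 453 in the other TBI libraries and 410 to 482 in control. Gata2, which stem cells need and mast cells and basophils also express, read 9.72, 9.01 and 11.9 FPKM in control and 2.69, 8.61 and 7.56 in TBI (adjusted p 0.224). TBI 1 was again the lowest, and the basophil and mast cell list summed to 243 FPKM there beside 391 and 402 in the other TBI libraries. All 3 were below the control sums of 502 to 585 FPKM, and of the 8 genes of that list tested 6 were lower and 0 called (median log2 change -0.71). The part of those cells in the levels of Sox4, Gata2 and Kit was not tested.

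The remaining tested factors did not pass. Hoxa7 averaged 2.22 ± 0.419 FPKM in control and 0.897 ± 0.712 in TBI (SD, n = 3; limma adjusted p 0.159). Its TBI libraries read 1.72, 0.508 and 0.464, all below the lowest control library, at 1.78. Hoxa9 averaged 1.75 and 1.02 FPKM, Hoxb4 4.35 and 3.39, and Hlf, a factor restricted to the most immature cells, 2.45 ± 0.105 and 1.92 ± 0.162 (adjusted p 0.222). Runx1 and Lmo2 differed little, at 21.8 and 20.7 FPKM and at 108 and 102 FPKM, with 95% intervals of the log2 change from -0.37 to 0.23 and from -0.39 to 0.23. Mllt3, a chromatin reader that helps maintain stem cells, stood at 5.24 ± 0.153 FPKM in control and 7.21 ± 2.72 in TBI, and its TBI libraries were all above control (adjusted p 0.537).

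Of the receptors, Kit and Flt3 were lower without reaching the threshold. Kit, the receptor of stem cell factor, read 18.7, 19.5 and 18.1 FPKM in control and 14.2, 14.0 and 13.1 in TBI, which is 73.5% of the control mean without overlap (log2 change -0.42, SE 0.20, limma adjusted p 0.288). Flt3, a cytokine receptor of multipotent and lymphoid progenitors, read 8.45, 7.46 and 7.23 FPKM in control and 4.13, 3.32 and 3.49 in TBI, 47.3% of control (log2 change -0.91, SE 0.26, adjusted p 0.0824). Both groups were tight for Kit and Flt3. With only the control and TBI libraries in the fit both were called, and also without TBI+DEIX replicate 1. Eng, a co-receptor of the TGF-beta family, was at 7.57 ± 1.06 and 8.46 ± 2.67 FPKM, with overlapping libraries.

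Cd34 had the largest log2 change of the 23 genes. This sialomucin, carried by progenitors and by activated stem cells, read 21.2, 21.0 and 20.3 FPKM in control and 7.01, 2.92 and 3.44 in TBI. TBI stood at 21.4% of the control mean (log2 change -2.07, SE 0.32, limma adjusted p 0.00517). The calls of Cd34, Meis1, Angpt1 and Myct1 held under each of the alternatives run, and the log2 change of Cd34 stayed between -2.39 and -1.87. Cd93, a C-type lectin receptor of early haematopoietic, immature B and myeloid cells, went from 26.7 ± 2.08 to 13.9 ± 1.24 FPKM (SD, n = 3; log2 change -0.90, SE 0.13, adjusted p 0.00296). Its call was lost on the TPM scale, at an adjusted p of 0.0558.

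The other surface proteins were mixed. Muc13, a transmembrane mucin, read 5.19, 5.45 and 5.51 FPKM in control and 2.48, 2.43 and 2.75 in TBI, without overlap (log2 change -0.85, SE 0.39, limma adjusted p 0.279). The shared model also takes in the TBI+DEIX libraries, whose SD was 5.04 FPKM, and the fit on control and TBI alone called Muc13. Prom1 (CD133) was higher in each TBI library, at 29.5 ± 3.92 FPKM in control and 40.7 ± 5.20 in TBI (adjusted p 0.297). Adgrg1 (GPR56) overlapped, at 34.0 ± 2.81 and 31.4 ± 14.3 FPKM.

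Angpt1 and Myct1 fell in the last group. Angpt1, the ligand of Tek and a product of stem cells and megakaryocytes, read 5.25, 4.24 and 3.99 FPKM in control and 0.804, 1.58 and 1.45 in TBI. TBI was at 28.4% of control (log2 change -1.28, SE 0.19, limma adjusted p 0.00413). Myct1, a membrane protein of stem cells and endothelium, read 1.15, 0.878 and 1.13 FPKM in control and 0.123, 0.202 and 0.149 in TBI, or 15.1% of control (log2 change -0.82, SE 0.13, adjusted p 0.00539). Its log2 change is small for that ratio because the added 1 FPKM compresses low levels, and with a pseudocount of 0.1 it was -2.16. Egfl7, a secreted factor of endothelium and stem cells, overlapped at 9.27 ± 1.21 and 14.1 ± 5.86 FPKM.

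Among the called genes, Angpt1, which fell, and Erg, which rose, are shared with megakaryocytes, whose markers were lower in TBI. The 12 megakaryocyte and platelet genes summed to 132 to 195 FPKM in control and 47.7 to 68.8 in TBI, and 4 of the 11 tested were called lower. The 16 endothelial genes summed to 19.4 to 21.9 FPKM in control and 14.6 to 16.2 in TBI, mostly from Pecam1, which leukocytes and platelets also carry. Of the 4 endothelial genes tested Pecam1 was called lower, and Tie1, Plvap and Lyve1, with log2 changes of -0.40, 0.37 and 0.59, were not called. The part of megakaryocytes and endothelium in the levels of Angpt1, Erg and Myct1 was not tested.

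**Figure D2:**
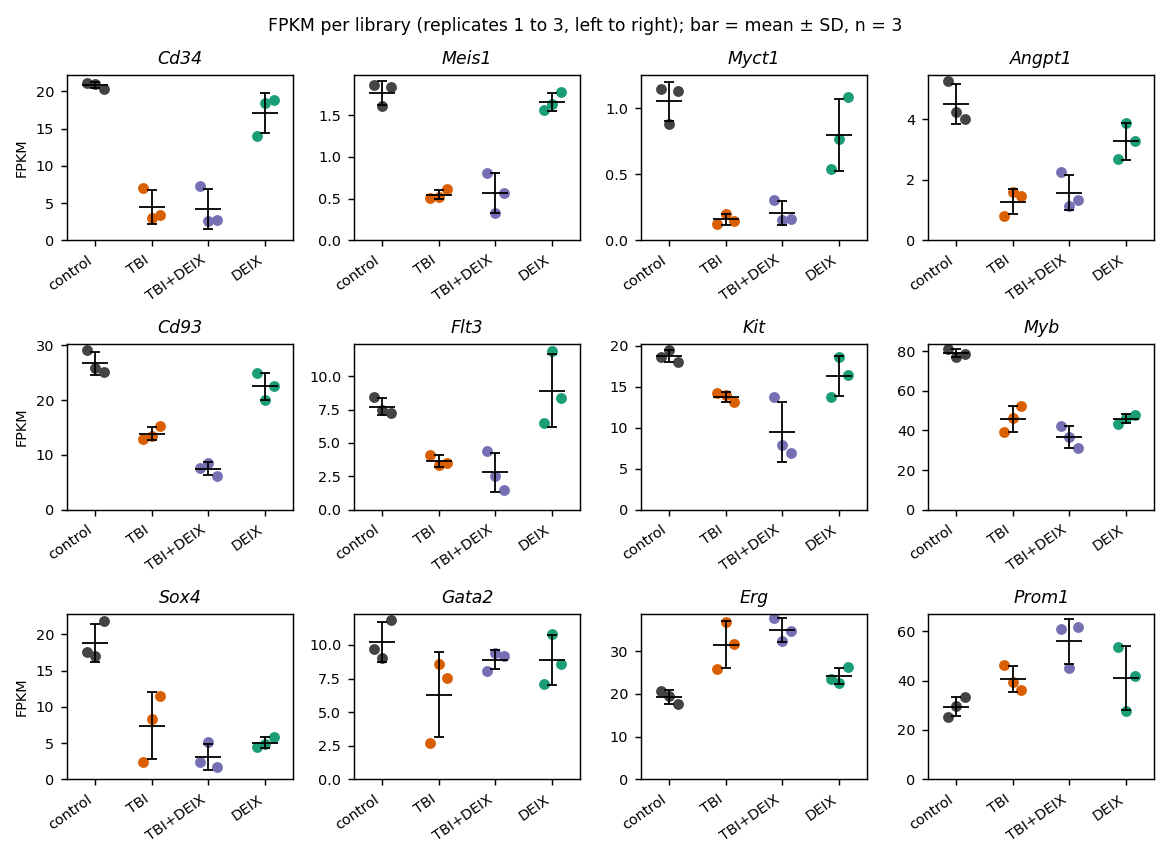
FPKM in each library, for 12 of the genes, 1 panel a gene and 1 point a library, with replicates from left to right, with bars for the group mean and SD (n = 3). Cd34, Meis1, Myct1 and Angpt1 are low in both irradiated groups, Myb and Sox4 are also low in DEIX, and Erg is high in both irradiated groups.

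Cd34, Meis1 and Myct1, which were called lower in both comparisons of irradiated with unirradiated mice, had a promoter entry in the RefSeq table, and each held a different one of the blood factor motifs searched. The 250 bases before the start of each gene are shown from RefSeq on GRCm38.p6, on the strand of the gene, with the motif match in capitals. For Cd34 (chr1:194938571-194938820, plus strand) the capitals mark an ETS motif, AGGAAG, read on the opposite strand 142 bases before the start. For Meis1 (chr11:19018970-19019219, minus strand) they mark a RUNX motif, TGTGGT, 166 bases before the start. For Myct1 (chr10:5593478-5593727, plus strand) they mark a GATA motif, AGATAA, 61 bases before the start. The same stretch of Flt3, called lower in TBI+DEIX against DEIX, and of Myb, called lower in TBI, held none of the motifs.
Cd34: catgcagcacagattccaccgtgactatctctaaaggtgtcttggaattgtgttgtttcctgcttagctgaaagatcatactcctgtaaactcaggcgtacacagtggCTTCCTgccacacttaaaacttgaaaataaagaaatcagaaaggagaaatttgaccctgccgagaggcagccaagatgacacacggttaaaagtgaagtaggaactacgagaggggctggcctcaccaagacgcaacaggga
Meis1: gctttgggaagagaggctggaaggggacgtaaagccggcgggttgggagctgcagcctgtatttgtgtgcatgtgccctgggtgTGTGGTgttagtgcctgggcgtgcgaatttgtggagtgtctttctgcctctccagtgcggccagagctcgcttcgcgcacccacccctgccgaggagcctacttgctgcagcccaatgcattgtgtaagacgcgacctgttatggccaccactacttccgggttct
Myct1: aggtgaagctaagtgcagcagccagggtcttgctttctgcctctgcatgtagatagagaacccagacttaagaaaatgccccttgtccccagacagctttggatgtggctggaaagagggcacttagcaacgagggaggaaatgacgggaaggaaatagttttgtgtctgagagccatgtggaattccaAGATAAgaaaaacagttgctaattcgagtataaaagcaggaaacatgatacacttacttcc

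Of the 32 genes, 28 had such a window, and the first listed was used for the 11 with more than 1. Angpt1, Cd93, Esam and Lmo2 had no entry. Searched on both strands, the ETS motif was present in 10 of 28, or 35.7%, beside 29.2% of the 27025 genes in the RefSeq table. The E-box CAGCTG was present in 5 (17.9%, beside 12.8%), the MEIS motif TGACAG in 3 (10.7%, beside 16.0%), the RUNX motif in 2 (7.14%, beside 14.2%) and the GATA motif in 1 (3.57%, beside 10.3%). The windows of the 28 genes were richer in G and C, with a median of 58% beside 52%, and held a median of 11 CpG sites beside 6. These matches describe letters in the windows only.

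Irradiation can also be read among mice given DEIX, by comparing TBI+DEIX with DEIX. This comparison uses none of the libraries of TBI against control, although both came from 1 fit, and it was added after the data were seen. Cd34, Cd93, Flt3, Meis1 and Myct1 fell, 5 of 23 genes, and 0 rose, where 1.76% of all tested genes were called lower and 0.81% higher. The selection of Meis1 and Myct1 through unirradiated libraries bears on this count too. The median log2 change of the 23 genes was -0.32, beside 0.02 for all tested genes, and 18 of 23 were lower. Over all 32 genes, 13 had every TBI+DEIX library below every DEIX library and 1 had every one above, beside 7.67% and 8.07% of all genes. The megakaryocyte and platelet list was lower here as well, at 33.9 to 61.4 FPKM in TBI+DEIX and 79.1 to 131 in DEIX, with 3 of 11 tested genes called lower and a median of -0.69. Its part in the levels of these genes was not tested.

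Cd34 read 13.9, 18.5 and 18.8 FPKM in DEIX and 7.27, 2.54 and 2.78 in TBI+DEIX. TBI+DEIX was at 24.6% of the DEIX mean (log2 change -1.90, SE 0.32, limma adjusted p 0.0154). Cd93 read 24.9, 20.0 and 22.6 FPKM in DEIX and 7.70, 8.55 and 6.20 in TBI+DEIX, far apart (log2 change -1.47, SE 0.13, adjusted p 0.000773). Flt3, not called in TBI against control, read 6.52, 11.9 and 8.34 FPKM in DEIX and 4.39, 2.53 and 1.46 in TBI+DEIX (log2 change -1.42, SE 0.26, adjusted p 0.0191). The difference between its changes in the 2 comparisons is the interaction, which was not called for any of the 23 genes.

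Meis1 and Myct1 were again well below their unirradiated libraries. Meis1 averaged 1.66 ± 0.109 FPKM in DEIX and 0.570 ± 0.239 in TBI+DEIX, 34.4% (SD, n = 3; log2 change -0.77, SE 0.12, limma adjusted p 0.0115). Myct1 averaged 0.796 ± 0.275 and 0.207 ± 0.0880 FPKM, 25.9% (log2 change -0.57, SE 0.13, adjusted p 0.0435). Angpt1 averaged 3.27 ± 0.607 and 1.57 ± 0.583 FPKM (48.1%) and Kit 16.3 ± 2.46 and 9.51 ± 3.68 (58.4%), each without overlap and each with an adjusted p of 0.0694. Erg, at 24.2 ± 1.95 and 34.9 ± 2.76 FPKM, was again higher in every irradiated library (adjusted p 0.0658). Myb differed less here, at 45.9 ± 2.23 and 36.8 ± 5.42 FPKM (adjusted p 0.230).

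With only the TBI+DEIX and DEIX libraries in the fit, all 5 calls were lost. Limma then called 0 of 23 genes and 0 of all 10994, while 11 of 23 and 1035 of 10994 had an unadjusted p under 0.05, and adjusted p of the 5 ran from 0.0754 for Cd93 to 0.347 for Myct1. With single libraries left out, Cd93 kept its call throughout, Meis1 lost it without DEIX replicate 3, Cd34 and Flt3 without DEIX replicate 2 or 3, and Myct1 without most of the 12 libraries. Without DEIX replicate 3, 1 of 23 genes was called lower, beside 0.337% of all tested genes, and without TBI+DEIX replicate 1 it was 10 of 23, beside 3.6%.

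Called lower in both irradiation comparisons were Cd34, Cd93, Meis1 and Myct1, 4 of 23 genes, beside 0.619% of all tested genes. Meis1 and Myct1 entered the test only through unirradiated libraries, so that part of the count was built into the selection. Of the 23 genes, 17 were lower in both, beside 27.9% of all tested genes, 4 were higher in both and 2 went in opposite directions. Across the 23 genes the 2 sets of log2 changes had a Pearson r of 0.83 and a Spearman rho of 0.82, beside an r of 0.42 over all 10994 genes. Genes are not independent replicates, and these values only describe the set.

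**Figure D3:**
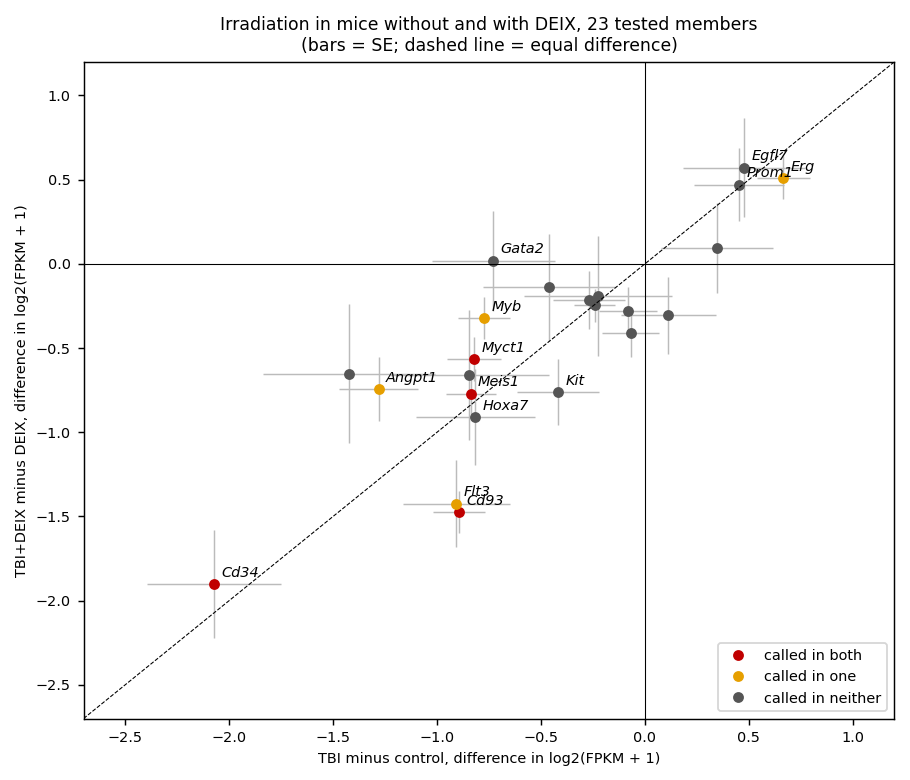
Log2 change of each of the 23 tested genes in TBI against control (horizontal axis) and in TBI+DEIX against DEIX (vertical axis), both from log2(FPKM + 1), with bars of 1 SE, a dashed line of equal change and colours for calls. Cd34 lies farthest down and to the left, 17 genes are below 0 on both axes, and Erg and Prom1 are among the 4 above 0 on both.

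What DEIX did after irradiation was read from TBI+DEIX and TBI. Cd93 and Lmo2 were lower, 2 of 23 genes, and 0 were higher, where 3.41% of all tested genes were called lower and 4.69% higher. The median log2 change of the 23 genes was -0.11, beside 0.00315 over all tested genes, and 13 of 23 were lower. Over all 32 genes, 4 lay without overlap below TBI and 2 above, beside 10.2% and 11% of all genes.

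For Cd34, Meis1, Myct1 and Angpt1 no difference between the irradiated groups was detected, and the intervals still allow one in either direction. Cd34 read 7.01, 2.92 and 3.44 FPKM in TBI and 7.27, 2.54 and 2.78 in TBI+DEIX, so that 1 library of each group was well above the other 2 (log2 difference -0.11, 95% interval -0.82 to 0.60, limma adjusted p 0.854). For Meis1 the difference was 0.01 (95% interval -0.26 to 0.28), for Myct1 0.06 (-0.23 to 0.34) and for Angpt1 0.17 (-0.25 to 0.59).

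Cd93 and Lmo2 were lower with DEIX than with vehicle. Cd93 read 12.9, 13.5 and 15.3 FPKM in TBI and 7.70, 8.55 and 6.20 in TBI+DEIX, 53.8% of the TBI mean (log2 change -0.82, SE 0.13, limma adjusted p 0.0128). Lmo2, the bridging subunit of the complex of Tal1 and GATA factors in stem and erythroid cells, read 109, 92.1 and 105 FPKM in TBI and 55.5, 75.8 and 76.0 in TBI+DEIX (log2 change -0.57, SE 0.14, adjusted p 0.0354). The 10 erythroid and megakaryocyte progenitor genes summed to 762 to 1173 FPKM in TBI and 380 to 651 in TBI+DEIX, and their part in Lmo2 was not tested. The lymphoid progenitor and pro-B cell list was lower too, with sums of 286 ± 223 FPKM in TBI and 103 ± 109 in TBI+DEIX (SD, n = 3), all 11 genes lower, 0 called by limma and a median of -1.30, and its part in Cd93 and Sox4 was not tested. Both calls were lost with only these 6 libraries in the fit (adjusted p 0.144 and 0.160), on the TPM scale and without TBI replicate 3. Cd93 kept its call under all other alternatives run, whereas Lmo2 lost it under 10 of 19, among them the replicate block and each control and each TBI library left out. Without TBI+DEIX replicate 1, 7 of 23 genes were called lower, beside 9.59% of all tested genes called lower in that fit.

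Other genes were below TBI but not called. Eng averaged 8.46 ± 2.67 FPKM in TBI and 4.34 ± 1.35 in TBI+DEIX (SD, n = 3), without overlap (log2 change -0.82, limma adjusted p 0.0511). Kit averaged 13.8 ± 0.607 and 9.51 ± 3.68 FPKM, Mllt3 7.21 ± 2.72 and 3.59 ± 0.983, and Sox4 7.40 ± 4.60 and 3.07 ± 1.78, with adjusted p of 0.103, 0.0817 and 0.174. Muc13 and Hoxa9 were above TBI on average, which rested on a single library. TBI+DEIX 1 read 11.0 FPKM for Muc13 beside 2.01 and 2.65 in the other TBI+DEIX libraries, and 3.83 FPKM for Hoxa9 beside 0.737 and 0.902. Gata2, at 8.07, 9.41 and 9.18 FPKM in TBI+DEIX, was tight there, above TBI on average and overlapping with it (limma adjusted p 0.258).

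The effect of DEIX without irradiation was read from DEIX and control. Myb and Sox4 fell, 2 of 23 genes, and 0 rose, where 2.72% of all tested genes were called lower and 4.52% higher. The median log2 change of the 23 genes was -0.20, beside 0.02 over all tested genes. Over all 32 genes, 14 had every DEIX library below every control library and 2 above, beside 16.2% and 16.4% of all genes.

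Myb averaged 45.9 FPKM in DEIX, beside 46.0 in TBI and 78.9 in control. It read 81.1, 77.2 and 78.4 FPKM in control and 43.5, 46.2 and 47.9 in DEIX, 58.2% of control (log2 change -0.77, SE 0.12, limma adjusted p 0.00753). The call was lost on the TPM scale, at an adjusted p of 0.0582. Sox4 read 17.6, 17.0 and 21.8 FPKM in control and 4.40, 4.87 and 5.88 in DEIX, 26.8% of control and without overlap (log2 change -1.71, SE 0.42, adjusted p 0.0344). It lost its call under 9 alternatives, among them each control and each DEIX library left out, with an adjusted p of at most 0.130. The lymphoid progenitor and pro-B cell list summed to 44.6 to 73.5 FPKM in DEIX beside 410 to 482 in control, and its part in the levels of Sox4 and Myb was not tested.

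Of the 6 tested genes called lower in TBI, Cd34, Meis1, Angpt1, Cd93 and Myct1 had DEIX means closer to control than to TBI, and Myb did not. Cd34 averaged 17.1 ± 2.72 FPKM in DEIX (SD, n = 3), 82.0% of control, with every DEIX library below every control library (log2 change -0.28, limma adjusted p 0.634). Meis1 was at 93.9% of control, Myct1 at 75.8%, Angpt1 at 72.8% and Cd93 at 84.2%, none of them called. Kit and Flt3, not called in TBI either, were at 86.9% and 116%. The megakaryocyte and platelet list summed to 79.1 to 131 FPKM in DEIX beside 132 to 195 in control, with all 11 tested genes lower, 1 of them called (median -0.36), and its part in the levels of Cd34, Angpt1 and Myct1 was not tested. Hoxa7 averaged 2.22 FPKM in control and 2.27 in DEIX, and Hoxa9 1.75 and 1.78. Mllt3, Egfl7 and Adgrg1 were lower on average, at 64.9%, 66.4% and 67.3% of control, with adjusted p of 0.227, 0.282 and 0.338. Erg, at 125% of control, had all DEIX libraries above control (adjusted p 0.164).

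**Figure D4:**
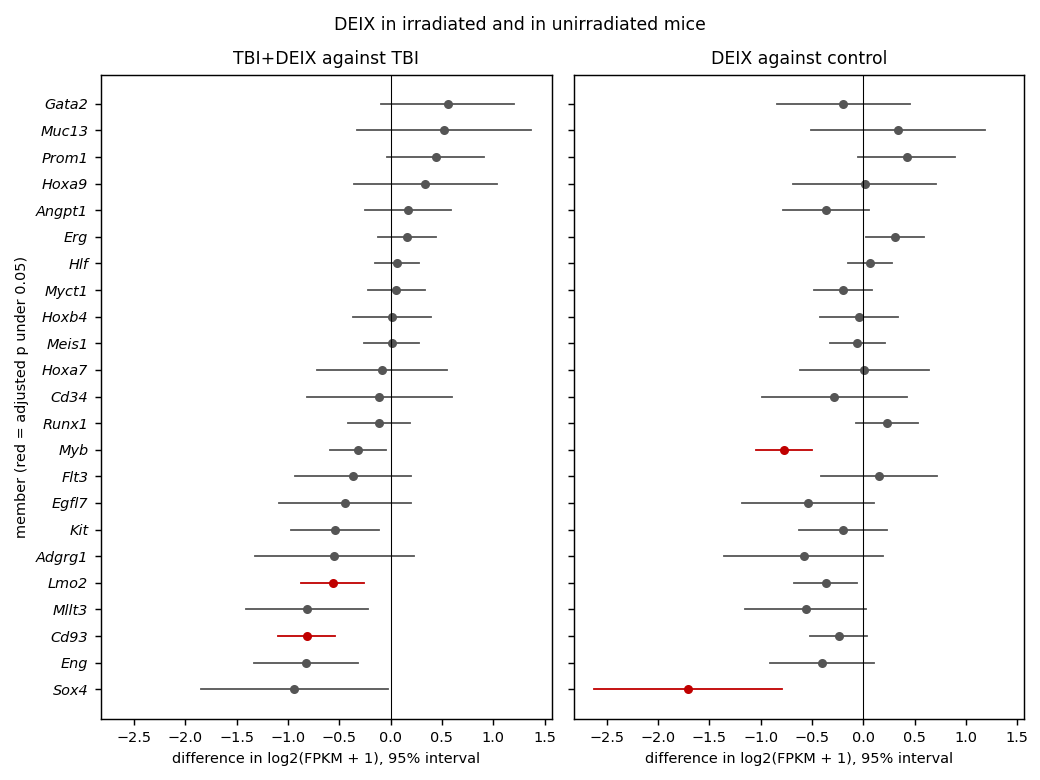
Log2 change with DEIX of each of the 23 tested genes, in irradiated mice (TBI+DEIX against TBI) and in unirradiated mice (DEIX against control), from log2(FPKM + 1), with bars of 95% intervals, called genes in red. Cd93 and Lmo2 are called in irradiated mice, and Myb and Sox4 in unirradiated mice.

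The interaction, defined as the effect of DEIX after irradiation less its effect without, was called by limma for 0 of 23 genes. Over all tested genes 0.2% were called. An unadjusted limma p under 0.05 was found for 2 of the 23 genes and for 825 of all 10994. The median interaction over the 23 genes was 0.04, beside -0.02 for all tested genes. So calls that were reached in only 1 of the 2 DEIX comparisons were not shown to differ between irradiated and unirradiated mice. With array weights, which down-weight libraries that deviate, Kit and Cd93 were called lower, while 532 of all 10994 genes were called in either direction.

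Against control, TBI+DEIX combines both treatments and had the most calls. Of the 23 genes, 12 fell and 2 rose, where 13.1% of all tested genes were called lower and 16.9% higher. Meis1, Myct1 and Hoxa7, which needed unirradiated libraries to pass the filter, are among the 12. The fallers were the factors Sox4, Myb, Hoxa7, Meis1 and Lmo2, the receptors Flt3, Kit and Eng, the surface proteins Cd34 and Cd93, and Angpt1 and Myct1. The risers were Erg and Prom1. The median log2 change was -0.71, beside 0.02 for all tested genes. Over all 32 genes, 21 had every TBI+DEIX library below every control library and 2 above, beside 18.4% and 17.8% of all genes. This comparison shares its libraries with those above, so it is no separate support for them.

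Markers of other marrow cells differed in the same comparison. All 9 maturing neutrophil genes tested were higher in TBI+DEIX, with 4 called and a median log2 change of 1.03. Their summed FPKM was 25829 ± 4380 in control and 41940 ± 17499 in TBI+DEIX (SD, n = 3), where TBI+DEIX 1, at 21765, was below all control libraries. Of the 11 megakaryocyte and platelet genes tested 8 were called lower, with a median of -0.83. Of the 10 erythroid and megakaryocyte progenitor genes 3 were called lower, with a median of -0.85, and their sum was 878 ± 32.4 FPKM in control and 486 ± 145 in TBI+DEIX. Of the 11 lymphoid progenitor and pro-B cell genes 7 were called lower, with a median of -2.34, and their sum was 445 ± 35.8 FPKM in control and 103 ± 109 in TBI+DEIX. Called lower were also 2 of 4 endothelial genes, 3 of 12 granulocyte and monocyte progenitor genes, 1 of 8 basophil and mast cell genes and 1 of 6 stroma genes. The medians of these lists were -0.45, -0.22, -0.43 and 0.13. The part of all these cells in the levels of the 23 genes, among them Sox4, Lmo2, Myb and Kit, was not tested.

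On the log2(FPKM + 1) scale the largest of these changes were in Sox4, Cd34 and Cd93, while Myct1, at 19.7% of control, was below Cd34 and Cd93 by ratio. Sox4 was at 16.3% of control (log2 change -2.36, SE 0.42, limma adjusted p 0.00222), Cd34 at 20.2% (-2.18, SE 0.32, adjusted p 0.000851) and Cd93 at 28.0% (-1.71, SE 0.13, adjusted p 4.12e-05). Kit, at 50.8% of control, and Flt3, at 36.2%, passed here with log2 changes of -0.96 and -1.27 and adjusted p of 0.00448 and 0.00443. Prom1 read 25.4, 29.8 and 33.2 FPKM in control and 60.8, 45.2 and 61.7 in TBI+DEIX (log2 change 0.89, SE 0.22, adjusted p 0.0106). Erg was at 181% of control (log2 change 0.82, SE 0.13, adjusted p 0.00121). Eng and Hoxa7 passed narrowly, at adjusted p of 0.0379 and 0.0358, and lost their calls under 10 and 7 of the alternatives.

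The 9 genes below the expression filter reached at most 1.01 FPKM in any library, where single reads weigh heavily. In a fit on all 17304 genes with a value above 0, Mycn, Slamf1 and Hoxa5 were called lower in TBI than in control, beside 2.99% of those genes called lower. Mycn, a Myc family factor of stem cells, averaged 0.968 ± 0.0431 FPKM in control and 0.270 ± 0.136 in TBI (SD, n = 3; limma adjusted p 0.00293). Slamf1 (CD150), which marks long-term stem cells and megakaryocytes, averaged 0.542 ± 0.101 and 0.151 ± 0.0372 FPKM (adjusted p 0.00628). Hoxa5 averaged 0.791 ± 0.105 and 0.215 ± 0.0437 FPKM (adjusted p 0.0294). The calls of Mycn and Slamf1 held with a pseudocount of 0.1, with control and TBI alone and without each library in turn, while Hoxa5 lost its call with that pseudocount and when any 1 of the 6 control and TBI libraries was left out (adjusted p up to 0.117). Mycn was also called lower in TBI+DEIX than in DEIX, at 0.274 ± 0.0620 beside 0.665 ± 0.143 FPKM (adjusted p 0.0471, beside 1.4% of genes called lower), a call lost under 12 of 14 alternatives, among them a pseudocount of 0.1, those 2 groups alone and each of their 6 libraries left out (adjusted p up to 0.214). In TBI+DEIX against control Mycn, Slamf1, Hoxa5, Tek and Esam were called lower, beside 9.92% of genes. With only those 2 groups in the fit Mycn kept its call and the other 4 lost theirs. Esam also lost it without most single libraries, Tek without any of 4 and Hoxa5 without control replicate 3.

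The other 6 were not called in TBI against control. Esam, an adhesion molecule of stem cells and endothelium, ranged from 0.306 to 0.736 FPKM over the 12 libraries, and Mecom, a zinc finger factor of long-term stem cells, from 0.0392 to 0.602. Procr (EPCR) ranged from 0.0879 to 0.596 FPKM and was below control in every TBI library. Tek, the receptor of Angpt1, ranged from 0.115 to 0.294 FPKM, also without overlap between control and TBI. Hoxa10 ranged from 0.0386 to 0.235 FPKM. Fgd5, an exchange factor used to mark stem cells in reporter mice, ranged from 0.0349 to 0.0862 FPKM with no group apart.

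The 4 Hoxa genes are neighbours on chromosome 6, on the minus strand, between 52201754 and 52240854 (GENCODE vM21, GRCm38). How reads that fall between neighbouring transcripts were assigned is not given in the sources used here. In TBI all 4 were below the control libraries. In TBI+DEIX 1 they read 0.529 (Hoxa5), 1.52 (Hoxa7), 3.83 (Hoxa9) and 0.235 FPKM (Hoxa10), each the highest of the 3 TBI+DEIX libraries. TBI 1 was likewise the highest TBI library for Hoxa5, Hoxa7 and Hoxa9.

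Another 40 stem and progenitor genes were examined beside the 32, of which 28 passed the filter. In TBI against control 4 of these 28 were called lower and 0 higher, with a median log2 change of -0.07. They included Cd27, a receptor of early progenitors and lymphocytes (5.10 ± 0.166 FPKM in control, 1.52 ± 0.226 in TBI), the G protein subunit Gng11 (3.86 ± 0.494 and 1.65 ± 0.180) and the Ikaros family factor Ikzf2 (2.05 ± 0.224 and 0.794 ± 0.0820). Their log2 changes were -1.28, -0.88 and -0.76, with limma adjusted p of 0.000803, 0.00143 and 0.00307, and these calls held under every alternative run. Ikzf2 stayed under 1 FPKM in TBI and passed the expression filter through other groups. A difference in it was therefore partly built into the selection.

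In TBI+DEIX against DEIX 5 of 28 were called lower, among them again Cd27 and Gng11, with log2 changes of -0.94 and -0.79, and also Pdzk1ip1 and the myeloid factor Cebpa. None of these 5 was called with only the TBI+DEIX and DEIX libraries in the fit, and Pdzk1ip1 and Cebpa lost their calls under 12 and 15 alternatives in all. With DEIX in irradiated mice, Ifitm1 and Spi1 were among those called higher, and Pdzk1ip1 was called lower. Ifitm1, an interferon-induced membrane protein, was called higher with DEIX in irradiated and in unirradiated mice, at 660 ± 403 FPKM in TBI+DEIX beside 178 ± 87.2 in TBI, and at 577 ± 85.8 FPKM in DEIX beside 177 ± 11.4 in control (SD, n = 3). Both calls of Ifitm1 were lost when any 1 control library was left out (limma adjusted p up to 0.171 and 0.144), and Spi1 and Pdzk1ip1 each lost theirs in irradiated mice under 12 alternatives.

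Lists for committed progenitors were read in the same fit. In TBI against control 0 of 12 granulocyte and monocyte progenitor genes and 0 of 10 erythroid and megakaryocyte progenitor genes were called by limma, with median log2 changes of -0.39 and 0.38. In TBI+DEIX against DEIX the medians were -0.44, with 2 of 12 called lower, and -0.16, with 0 of 10 called. The erythroid and megakaryocyte progenitor list had lower medians in the other comparisons, at -0.73 in DEIX against control (all 10 lower, 0 called), -0.85 in TBI+DEIX against control (3 called lower) and -1.17 in TBI+DEIX against TBI (2 called lower). The 11 lymphoid progenitor and pro-B cell genes had a median of -1.36 in TBI against control, with 1 called lower, and of -2.35 in DEIX against control, with 2 called lower. In TBI+DEIX against DEIX its median was 0.0085, with 6 of 11 higher and 0 called. Whether these lists differ from the 32 genes was not tested.

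**Figure D5:**
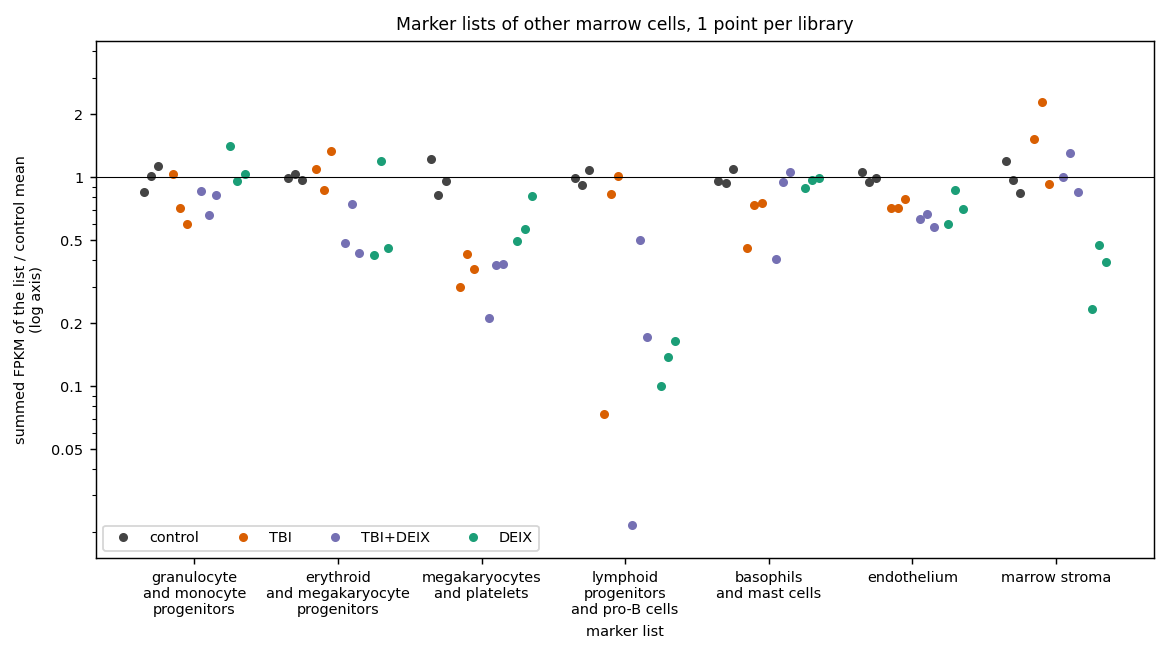
Summed FPKM of 7 marker lists in each library, divided by the mean of the control libraries, on a log axis with 1 point a library and colours by group. The megakaryocyte list is below control in all irradiated and all DEIX libraries, lowest in TBI+DEIX 1, and the lymphoid list is below control in all DEIX and all TBI+DEIX libraries and in TBI 1 and TBI 2, and lowest in TBI+DEIX 1.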

How the data were processed

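RNA of whole bone marrow was sequenced in 12 libraries, 3 for each of 4 groups, made with a directional mRNA kit per the labels' protocols. The authors deposited 1 table of FPKM values per gene and library, as the file header shows. The submitters' processing notes name STAR 2.6, Cufflinks 2.2.1 and the mm10 genome, with no role or order. Because the table has FPKM and not counts, count models were not applied. All 21853 identifiers matched GENCODE vM21, from which symbols and coordinates came. The 32 genes and all gene lists were chosen with earlier results of these data known.

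Values were analysed as log2(FPKM + 1), which understates changes of low genes, in limma 3.58.1 (R 4.3.3; lmFit, then eBayes with trend) with 1 mean per group and 8 residual degrees of freedom. Tests were two-sided, on 10994 genes with FPKM of at least 1 in 3 or more libraries, and calls used a Benjamini-Hochberg adjusted p under 0.05. TBI+DEIX against DEIX and the fits behind genes under the filter were added after seeing the data. The fit was tested on simulated data. Alternatives were a pseudocount of 0.1, no filter, TPM and median-of-ratios scales, the compared groups alone, a replicate block, array weights and each library left out. The median-of-ratios factors ran only from 0.984 to 1.01, so that scale was close to the deposited one and could move little. All 32 genes could be named, and of other lists any called gene or the 3 highest; Tie1, Plvap and Lyve1 were added after their values were seen, as the remaining endothelial genes tested. Promoters came from RefSeq (GRCm38.p6). Some genes of the other lists are not reported here.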

Additional observations from a re-analysis of the deposited data

Results flagged for a closer look

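Slamf1 (CD150) stood on opposite sides of its comparison group with DEIX, depending on irradiation, and neither difference was called. In irradiated mice its mean was 0.266 FPKM in TBI+DEIX, and the TBI+DEIX libraries, at 0.218, 0.204 and 0.378 FPKM, were all above the TBI libraries, at 0.108, 0.172 and 0.173. In unirradiated mice the DEIX libraries, at 0.353, 0.236 and 0.314 FPKM, were all below the control libraries, at 0.655, 0.463 and 0.507. Limma adjusted p values, without an expression filter, were 0.247 and 0.0575. All of these values are low. In the limma fit without an expression filter the interaction of irradiation and DEIX for Slamf1 had an adjusted p of 0.158, so the difference between the effects did not pass.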

How the results depend on the processing

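For each of the 23 tested genes, 6 comparisons and all alternatives, the outcome was set beside that of the fit described above. In 2462 cases it was the same, most of them genes called in neither fit. In 71 cases a call was lost, in 66 a call was gained, and 0 called values changed sign. Causes of the shifts below were not tested. The TBI+DEIX libraries were among the shallowest by the estimate above, and the part of depth in the shifts was not tested either. For all genes called, TBI against control (439) gave 675 without the filter, 253 on the TPM scale, 4218 with array weights and 1417 with the compared groups only. TBI+DEIX against TBI (891) gave 157 on the TPM scale, 4488 with array weights and 0 with the compared groups only, where 2015 genes had an unadjusted p under 0.05 in limma. DEIX against control (796) gave 282, 4508 and 2057, and TBI+DEIX against control (3299) gave 1785, 6187 and 2181, in the same order. The interaction (22) gave 11 with a pseudocount of 0.1, 37 without the filter and 532 with array weights. TBI+DEIX against DEIX (283) gave 125 on the TPM scale, 948 with array weights and 0 with the compared groups only, where 1035 had an unadjusted p under 0.05. Of the 23 genes, TBI against control (7) called 4 on the TPM scale and 16 with array weights. TBI+DEIX against TBI (2) called 0 on the TPM scale, 9 with array weights and 0 with the compared groups only. DEIX against control (2) called 1 each with a pseudocount of 0.1, without the filter and on the TPM scale, and 10 with array weights. The interaction (0) called 2 with array weights. TBI+DEIX against DEIX (5) called 2, 10 and 0 on the TPM scale, with array weights and with the compared groups only. The median log2 change of the 23 genes in TBI against control (-0.46) was -0.78 with a pseudocount of 0.1. Without the filter the 9 low genes enter, and the median over all 32 was -0.34. In DEIX against control (-0.20) the median of the 23 genes was -0.34 on the TPM scale. In TBI+DEIX against control (-0.71) it was -0.86 on the TPM scale and -0.86 with array weights, and -0.40 over all 32 genes without the filter. The TPM scale moved the median of all genes to -0.12 in TBI+DEIX against TBI and in DEIX against control. It took the share of higher calls from 57.9% to 34.4% and from 62.4% to 19.1% there, from 56.2% to 30.6% in TBI+DEIX against control, and from 22.3% to 9.49% in TBI against control.

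With each library left out in turn, all genes called ranged from 153 to 1337 in TBI against control, from 5 to 2836 in TBI+DEIX against TBI, from 146 to 2394 in DEIX against control, from 2004 to 4232 in TBI+DEIX against control, from 4 to 331 for the interaction and from 50 to 927 in TBI+DEIX against DEIX. In the same order the 23 genes gave 6 to 11, 0 to 7, 1 to 4, 12 to 16, 0 to 0 and 1 to 10 calls, and medians from -0.52 to -0.43, -0.31 to 0.046, -0.26 to -0.11, -0.82 to -0.48, -0.15 to 0.061 and -0.42 to -0.32. The highest of each count of calls came without TBI+DEIX replicate 1, save the interaction of the 23 genes at 0 throughout.

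The replicate numbers did not pair the samples: over 18 pairs of same-numbered libraries the correlation of deviations from group means ran from -0.45 to 0.24, and 3 exceeded 0.1. With the replicate block, 474 genes were called in TBI+DEIX against TBI, 1 of them among the 23, and 180 in TBI+DEIX against DEIX.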
